A study of Mus musculus with 10 samples.

Results

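The 47 genes described here make up the DNA replication and S phase machinery: origin licensing factors, the replicative helicase, the polymerases with their clamp, the enzymes of Okazaki fragments and nucleotide supply, and the cyclins and E2F factors of S phase entry. They were chosen by symbol from lists of known function, with no measured value in the rule, although earlier results of these data were known. All 47 were found in both expression tables, which hold 24043 and 24016 usable gene symbols, and all 47 passed the filter on low values (a mean of at least 1 RPKM, a read count scaled to transcript length and library size, over the libraries of a table).

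The samples were EMC mouse prostate cancer organoids, self-organising cultures grown from the dorsal-lateral prostate lobe of C57BL/6 mice 8 weeks old. Every group, the controls included, carried overexpressed cMYC, floxed EZH2 alleles and an inducible PSA-CreERT2, and grew in organoid medium with 10 nM R1881, a synthetic androgen. In the chemical experiment 3 libraries came from organoids given DMSO and 3 from organoids given 1 µM DZNep, an inhibitor of S-adenosylhomocysteine hydrolase that the submitters used against EZH2, the histone H3K27 methyltransferase. In the genetic experiment 2 libraries came from organoids given EtOH and 2 from organoids given 1 µM Tamoxifen, which activates CreERT2, and all organoids were collected after 3 days. Cre was driven by the PSA promoter, so recombination was limited to cells in which that promoter was active. Nothing in the labels ties the replicates to separate cultures or animals, so every p-value here rests on a spread between libraries that may be technical.

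Replication begins when the origin recognition complex, CDC6 and CDT1 load rings of MCM2 to MCM7 onto DNA in G1. In S phase CDC45 and the GINS complex join the MCM ring to form the active helicase, primase and polymerase alpha start each new strand, RFC loads the PCNA clamp, and polymerases delta and epsilon extend the strands. Most of these genes are transcribed through E2F factors, which the retinoblastoma family restrains until cyclin kinases release them, and their RNA levels in a bulk sample follow both the share of cycling cells and the amount of RNA per cell. Fewer cells in S phase and less RNA per cell cannot be told apart in these bulk libraries.

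Across the 10 libraries, between 11037 and 11094 genes lay at or above 1 RPKM, and RPKM summed to between 469455 and 512726 per library. The absolute read depth is unknown, since RPKM keeps no depth, so no interval for counting error can be given. EZH2 itself stood at 30.4, 29.8 and 27.1 RPKM in the 3 DMSO libraries and at 22.5, 24.2 and 24.7 RPKM in the 3 DZNep libraries. It fell with DZNep by 0.28 on the log2 scale (limma, adjusted p = 0.0142). EZH2 stood at 27.9 and 34.0 RPKM with EtOH and at 32.0 and 33.2 RPKM in the libraries labelled Tamoxifen. Those groups overlapped (log2 change 0.08, limma, adjusted p = 0.635), and a value for the whole gene does not check the loss of a floxed part. All 6 epithelial markers were at or above 1 RPKM in every group, led by KRT5 and KRT14. The fibroblast and smooth muscle list of 5 genes summed to 2.98 to 4.25 RPKM with DMSO and to 8.23 to 9.43 RPKM with DZNep, carried by DCN and ACTA2, while COL1A2 and DES were listed at 0 with both.

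In the control organoids the 47 genes spanned a wide range of RNA level. On the RPKM scale, which is per length and so can be set side by side between genes, PCNA was highest with 174 ± 18.0 RPKM in DMSO (SD, n = 3), followed by RRM2 with 126 ± 6.93 and MCM7 with 76.1 ± 7.39. PCNA is the sliding clamp that holds polymerases on DNA, and RRM2 is the small subunit of ribonucleotide reductase, which makes deoxynucleotides. The lowest were GINS3 with 3.55 ± 0.330 RPKM, ORC1 with 4.15 ± 0.419, CCNE2 with 4.60 ± 0.481 and CCNE1 with 5.11 ± 0.797 (SD, n = 3 each). The top 3 were separated by more than their SDs, whereas these lowest 4 overlapped with their neighbours in the order. The 6 MCM genes of the ring lay between 39.7 ± 2.49 RPKM for MCM2 and the 76.1 of MCM7, although their proteins assemble in equal numbers.

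Libraries of the same group differed from each other in these genes, and the shift was shared by nearly all of them. Each library was summarised by the median, over the 47 genes, of the difference between its log2(RPKM + 1) value and the gene's mean in that table. That median was 0.17, 0.04 and -0.07 in the 3 DMSO libraries and -0.12, -0.04 and -0.01 in the 3 DZNep libraries. The third DMSO library therefore lay below 2 of the 3 DZNep libraries, and the groups overlapped. The first DMSO library was the highest of its group in 41 of the 47 genes (87.2%), against 44.3% of all genes tested, and the third was the lowest in 42 (89.4%), against 45.4%. In the genetic experiment the medians were -0.14 and -0.03 with EtOH and -0.02 and 0.16 in the libraries labelled Tamoxifen. The second library labelled Tamoxifen was above the first in 47 of 47 genes, against 54.7% of all genes tested. Genes of mitosis, a separate list of 34, shifted the same way among libraries: the first DMSO library was the highest of its group in 31 of 34 and the second Tamoxifen library the higher in 34 of 34. Over all genes tested the medians stayed between -0.03 and 0.02 in every library. The part of this shared shift in the results below was not tested, so results for the 47 genes are also given without single libraries.

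**Figure D1:**
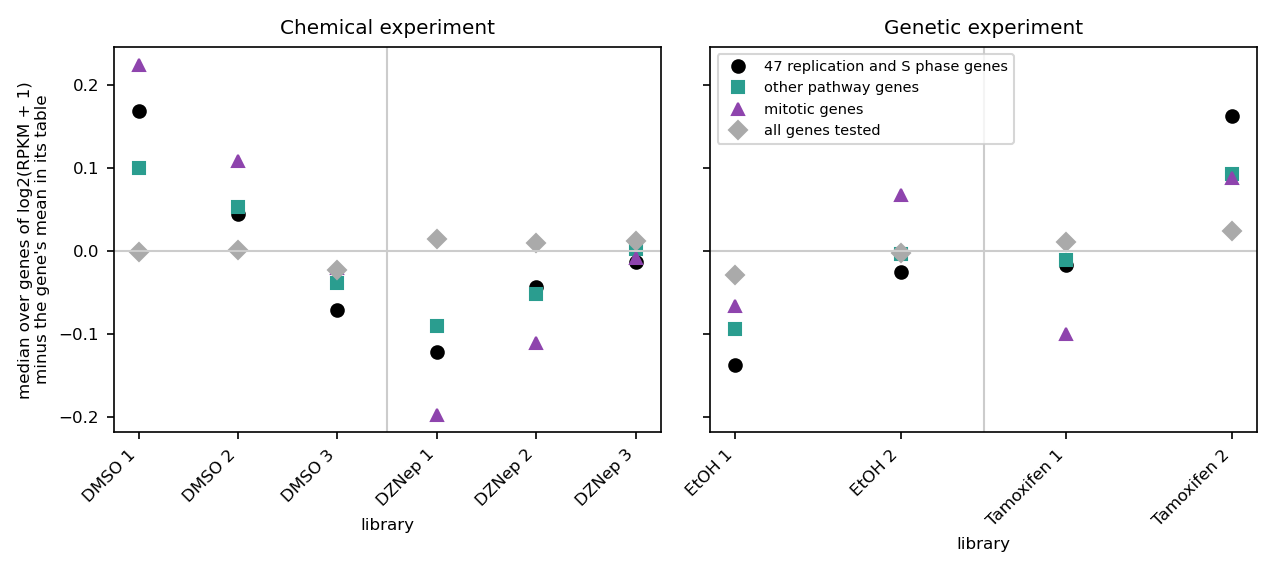
Shared shift of each library. Points give, for each library on the x axis, the median over a gene list of log2(RPKM + 1) minus the gene's mean in its table, for the 47 replication and S phase genes, the other pathway genes, the mitotic genes and all genes tested. For the 47 genes the DMSO libraries lie at 0.17, 0.04 and -0.07 and the DZNep libraries at -0.12, -0.04 and -0.01, while all genes tested stay near 0.

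The chemical experiment asks what DZNep did to gene expression against DMSO. With DZNep, 9 of the 47 genes fell and none rose: E2F8, CDT1, RRM2, E2F1, LIG1, CCNE2, TK1, POLE2 and RFC4 (limma's moderated test, adjusted p under 0.05 over 11143 genes, n = 3 per group). These are 19.1% of the 47 genes, against a background of 11.1% of all genes tested that fell, while 16.6% of all genes tested rose and 0% of the 47. An unadjusted p under 0.05 was found in 17 of the 47 genes (36.2%), a smaller share than the 41.7% of all genes tested. The change was moderate, from -0.47 to 0.18 on the log2 scale with a median of -0.10, beside 0.01 over all genes tested. That median was -0.05 without the first DMSO library and -0.15 without the third. Estimates lay below 0 in 37 of the 47, against 5227 of all 11143 genes tested. In 13 genes every DZNep library lay below every DMSO library (27.7%, against 19.4% of all genes tested), and in 1, RFC1, every DZNep library lay above (2.13%, against 26.1%). By role, 3 of the 4 genes of S phase entry fell, and 0 of the 11 helicase genes, against 11.1% of all genes tested. Those counts depend on the threshold: CDC45 and GINS1 of the helicase had an adjusted p of 0.055 and 0.0607 (limma). A difference between roles was not tested. Without the third DMSO library 15 of the 47 genes fell, against 8.22% of all genes tested, and without the second DMSO library 6, against 4.86%.

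**Figure D2:**
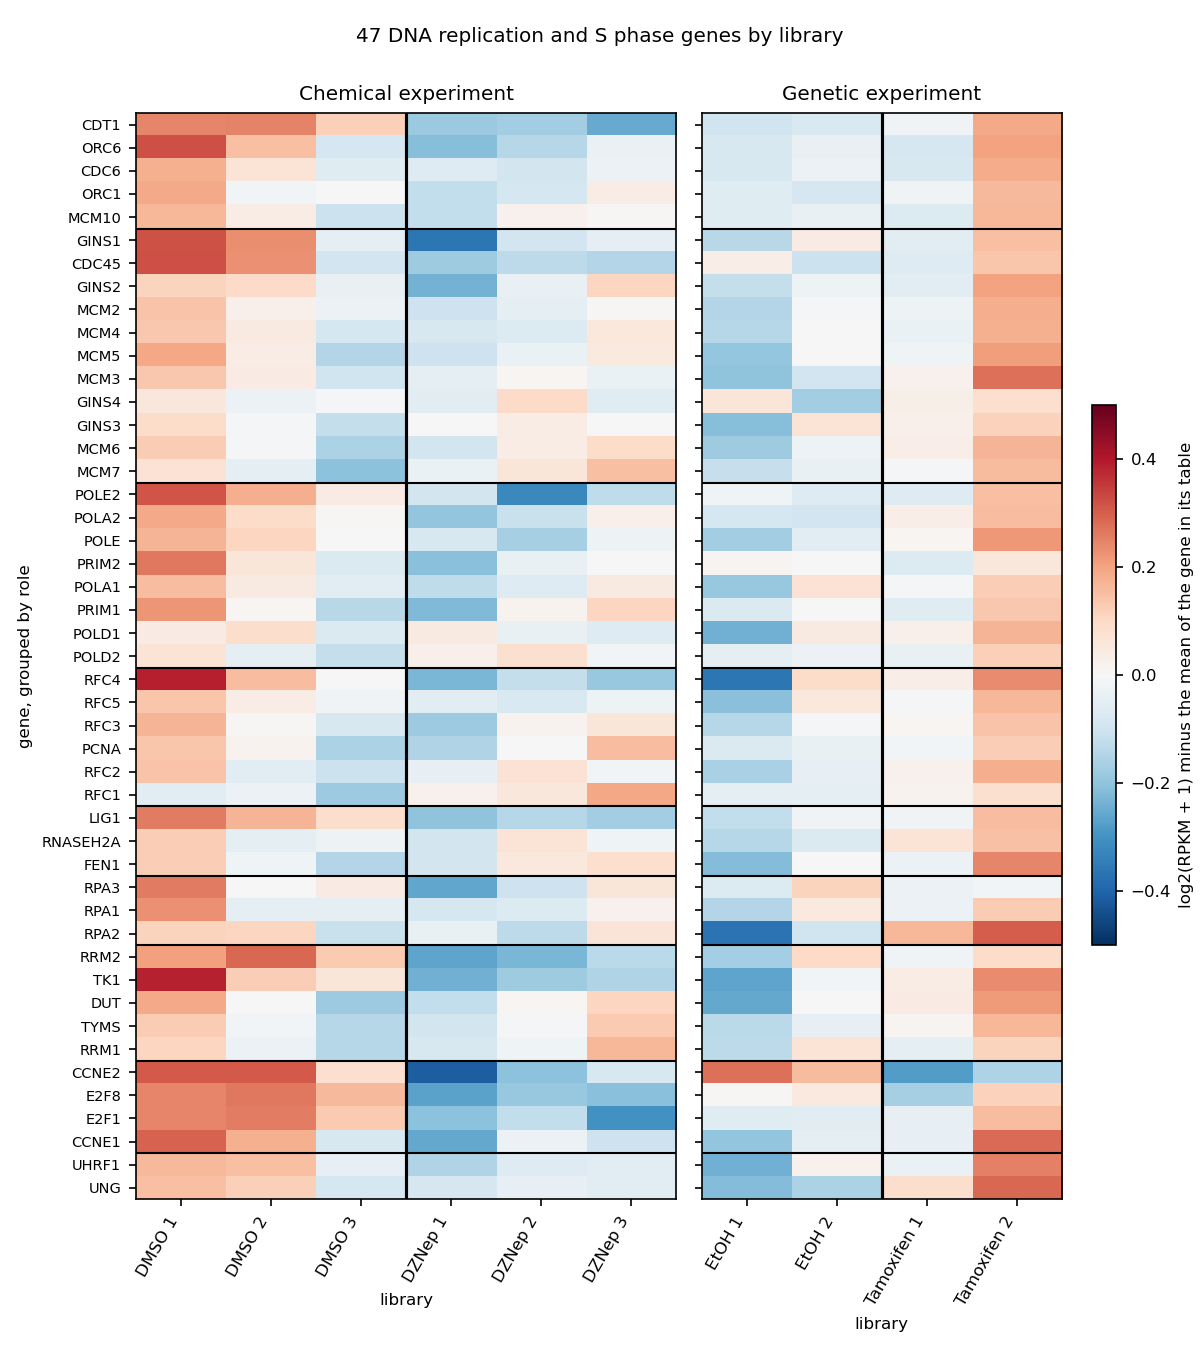
Level of all 47 genes in each library. Each row is a gene, ordered by role, each column a library, and the colour is log2(RPKM + 1) minus the gene's mean over the libraries of its table. Within DMSO the first library is highest in 41 genes, and E2F1, E2F8 and CCNE2 are lower in the 3 DZNep libraries than in the 3 DMSO libraries.

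Of the 4 genes of S phase entry, E2F8, E2F1 and CCNE2 fell and CCNE1 did not pass. E2F8, an E2F family member that represses transcription, stood at 13.2, 13.4 and 12.4 RPKM with DMSO and at 8.95, 9.50 and 9.36 RPKM with DZNep. It fell by 0.44 on the log2 scale (SE 0.0496, limma, adjusted p = 8.46e-04), with no overlap between the groups. E2F1, the activating factor that drives many S phase genes, stood at 8.81, 8.91 and 8.08 RPKM with DMSO and at 6.19, 6.61 and 5.71 RPKM with DZNep. All 3 DZNep libraries were lower, and E2F1 fell by 0.42 (SE 0.0635, limma, adjusted p = 0.00321). CCNE2, a cyclin partner of CDK2 at S phase entry, stood at 4.88, 4.87 and 4.04 RPKM with DMSO and at 2.56, 3.12 and 3.49 RPKM with DZNep. It fell by 0.47, the furthest of the 47 (SE 0.0996, limma, adjusted p = 0.0126), although without the second DMSO library the adjusted p was 0.0533. Its paralog CCNE1 stood at 5.11 ± 0.797 RPKM with DMSO and 4.08 ± 0.401 with DZNep (SD, n = 3 each), which did not pass (log2 change -0.26, limma, adjusted p = 0.096).

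**Figure D3:**
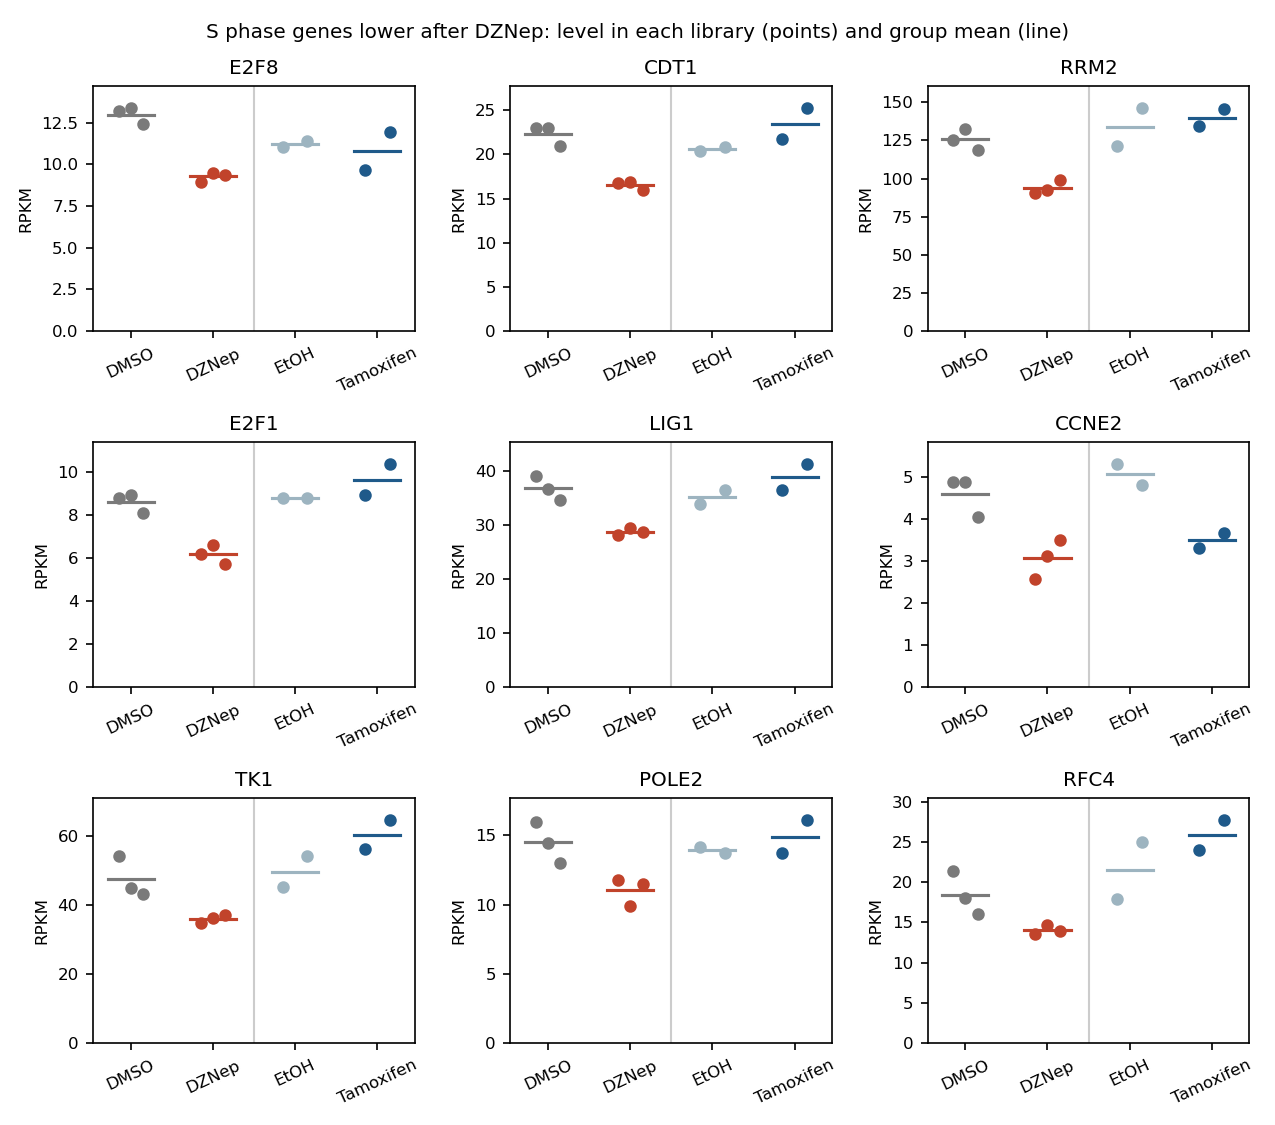
Level of the 9 genes that fell with DZNep. Each panel is a gene, points are single libraries in RPKM on a linear axis from 0, and horizontal bars are group means. In each panel the 3 DZNep points lie below the 3 DMSO points, and the EtOH and Tamoxifen points are shown beside them.

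Of the 5 genes that license and fire origins, CDT1 alone fell (20%, against 11.1% of all genes tested). CDT1, which brings the MCM ring to the origin recognition complex, stood at 22.9, 23.0 and 21.0 RPKM with DMSO and at 16.8, 16.9 and 16.0 RPKM with DZNep. The groups lay far apart relative to their spread, and CDT1 fell by 0.41 (SE 0.0531, limma, adjusted p = 0.00166). Its partner in loading, CDC6, stood at 5.67, 5.18 and 4.65 RPKM with DMSO and at 4.64, 4.54 and 4.78 RPKM with DZNep. Those groups overlapped (log2 change -0.12, limma, adjusted p = 0.214). ORC6, the origin recognition subunit with the highest level among the licensing genes, stood at 25.7, 22.7 and 19.1 RPKM with DMSO and at 17.4, 18.3 and 19.8 RPKM with DZNep. Its groups overlapped through the third DMSO library (log2 change -0.26, limma, adjusted p = 0.0888).

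None of the 11 genes of the helicase, which CDT1 helps to load, passed the test. Their median log2 change was -0.06, and 2 had an unadjusted p under 0.05 (18.2%, against 41.7% of all genes tested). MCM7, the highest of them, stood at 83.2, 76.6 and 68.5 RPKM with DMSO and at 77.2, 82.4 and 88.0 RPKM with DZNep. The groups overlapped (log2 change 0.12, SE 0.0804, limma, adjusted p = 0.299). CDC45, which joins the MCM ring to activate it, stood at 15.7, 14.7 and 11.5 RPKM with DMSO and at 10.8, 11.2 and 11.1 RPKM with DZNep. Every DZNep library was lower, but the DMSO spread was wide and the test was not passed (log2 change -0.30, limma, adjusted p = 0.055). GINS1, a subunit of the GINS complex, stood at 24.2, 22.7 and 18.5 RPKM with DMSO and at 14.7, 17.9 and 18.6 RPKM with DZNep. Its groups touched at the third library of each (log2 change -0.34, limma, adjusted p = 0.0607).

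Among the enzymes of nucleotide supply, 2 of 5 fell (40%, against 11.1% of all genes tested). RRM2 stood at 125, 133 and 119 RPKM with DMSO and at 90.3, 92.5 and 98.9 RPKM with DZNep. It fell by 0.42 (SE 0.0598, limma, adjusted p = 0.00256) with no overlap. RRM1, the large subunit of the same reductase, stood at 66.0, 59.9 and 55.3 RPKM with DMSO and at 57.8, 60.2 and 68.6 RPKM with DZNep, and those groups overlapped fully (log2 change 0.04, limma, adjusted p = 0.737). TK1, the thymidine kinase of the salvage route, stood at 54.1, 44.9 and 43.0 RPKM with DMSO and at 34.6, 36.3 and 36.9 RPKM with DZNep. TK1 fell by 0.38 (SE 0.0840, limma, adjusted p = 0.0142). TYMS, which makes thymidylate by the de novo route, stood at 13.4 ± 1.36 RPKM with DMSO and 13.6 ± 1.14 with DZNep (SD, n = 3 each), and DUT, which keeps uracil out of DNA, at 25.2 ± 3.38 and 25.1 ± 2.08.

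At the fork itself, single subunits fell while their partners did not pass the test. LIG1, the ligase that seals Okazaki fragments, stood at 39.2, 36.7 and 34.7 RPKM with DMSO and at 28.2, 29.4 and 28.7 RPKM with DZNep, and fell by 0.35 (SE 0.0552, limma, adjusted p = 0.00415). FEN1, the flap nuclease that acts just before it, stood at 27.3, 24.6 and 22.5 RPKM with DMSO and at 23.5, 26.0 and 26.6 RPKM with DZNep, with overlapping groups (log2 change 0.03, limma, adjusted p = 0.789). POLE2, the second subunit of polymerase epsilon, stood at 16.0, 14.5 and 13.0 RPKM with DMSO and at 11.8, 9.91 and 11.5 RPKM with DZNep. POLE2 fell by 0.36 (SE 0.0865, limma, adjusted p = 0.0194), but the adjusted p was up to 0.0656 without the second DMSO or the second DZNep library. POLE, the catalytic subunit, stood at 8.40, 8.00 and 7.35 RPKM with DMSO and at 6.91, 6.44 and 7.23 RPKM with DZNep. Its groups did not overlap, and the test was not passed (log2 change -0.18, limma, adjusted p = 0.0656), though it was after quantile normalization (adjusted p = 0.0346) or trimmed mean scaling (adjusted p = 0.0428). POLD2 of polymerase delta, the highest of the polymerase genes, stood at 33.9, 31.3 and 29.7 RPKM with DMSO and at 32.9, 34.2 and 32.0 RPKM with DZNep, which overlapped (log2 change 0.06, limma, adjusted p = 0.445).

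Of the 6 genes of the clamp and its loader, RFC4 fell (16.7%, against 11.1% of all genes tested) and the other 5 did not pass. RFC4, a small loader subunit, stood at 21.3, 18.0 and 16.0 RPKM with DMSO and at 13.6, 14.7 and 14.0 RPKM with DZNep. It fell by 0.36 (SE 0.0935, limma, adjusted p = 0.0255), the weakest of the 9 falls: the adjusted p rose to as much as 0.0715 when the second DMSO library or any DZNep library was left out. RFC1, the large loader subunit, stood at 17.7, 18.1 and 16.1 RPKM with DMSO and at 18.7, 19.2 and 21.2 RPKM with DZNep. RFC1 had the highest estimate of the 47 and did not pass (log2 change 0.18, limma, adjusted p = 0.0721), but it passed as higher when all 10 libraries shared the estimate of spread (adjusted p = 0.0397). PCNA stood at 191, 176 and 156 RPKM with DMSO and at 157, 174 and 194 RPKM with DZNep, so the groups covered the same range (log2 change 0.00, SE 0.0978, limma, adjusted p = 0.986).

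None of the 3 RPA genes, whose products coat single-stranded DNA, passed the test with DZNep, with a median log2 change of -0.09. RPA1, the highest of them, stood at 50.7, 41.8 and 41.8 RPKM with DMSO and at 40.5, 41.1 and 43.8 RPKM with DZNep. UHRF1, which brings maintenance DNA methylation to new strands, stood at 48.9, 48.6 and 42.4 RPKM with DMSO and at 39.2, 41.8 and 42.1 RPKM with DZNep. Its groups were close but did not overlap (log2 change -0.18, limma, adjusted p = 0.0783), and it passed after quantile normalization (adjusted p = 0.0228) or trimmed mean scaling (adjusted p = 0.046).

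A ratio of 2 genes within a library does not contain a shift that both share. The pairs were chosen after the values were seen, so the ratios are a description. For the same reason their permutation p-values do not count as tests. The RRM2 to RRM1 ratio of RPKM was 1.90, 2.22 and 2.15 with DMSO and 1.56, 1.54 and 1.44 with DZNep. LIG1 to FEN1 was 1.43, 1.49 and 1.54 with DMSO and 1.20, 1.13 and 1.08 with DZNep. TK1 to TYMS was 3.66, 3.37 and 3.56 with DMSO and 2.76, 2.71 and 2.49 with DZNep. In these pairs, and in CDT1 to CDC6, RFC4 to RFC2 and POLE2 to POLE, every DZNep library lay below every DMSO library (exact two-sided permutation p = 0.1 each, the smallest that 3 against 3 can give). The CCNE2 to CCNE1 ratio overlapped between DMSO and DZNep (exact two-sided permutation p = 0.2). A ratio shows unequal change and not that either gene stayed the same.

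**Figure D4:**
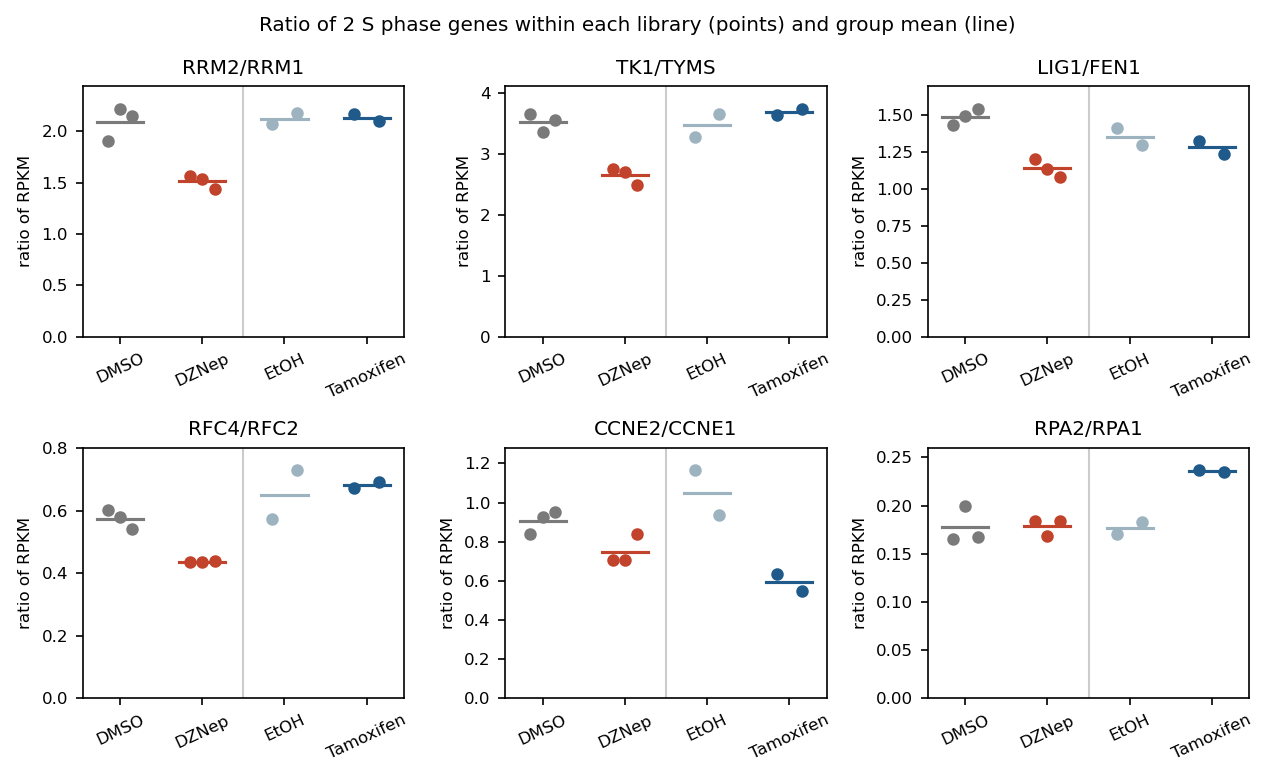
Ratios of RPKM between 2 genes within each library. Each panel is a pair, points are libraries on a linear axis from 0 and bars are group means. RRM2 to RRM1 lies at 1.90 to 2.22 with DMSO and 1.44 to 1.56 with DZNep, while the EtOH and Tamoxifen libraries lie between 2.07 and 2.17.

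Promoters are shown as a description, because E2F factors act at the starts of many S phase genes. RefSeq promoter sequences (GRCm38.p6, from 250 bases before to 50 after the start) were matched for 39 of the 47 genes, 45 promoters in all. E2F words of 8 bases were searched on both strands: TTTCCCGC, TTTCGCGC, TTTGCCGC and TTTGGCGC. Below are the 3 genes lowered by DZNep that hold a word, and MCM6, which holds the most words of the 39 genes searched and was added after its values were seen. Words are in capitals, in either orientation.
CDT1: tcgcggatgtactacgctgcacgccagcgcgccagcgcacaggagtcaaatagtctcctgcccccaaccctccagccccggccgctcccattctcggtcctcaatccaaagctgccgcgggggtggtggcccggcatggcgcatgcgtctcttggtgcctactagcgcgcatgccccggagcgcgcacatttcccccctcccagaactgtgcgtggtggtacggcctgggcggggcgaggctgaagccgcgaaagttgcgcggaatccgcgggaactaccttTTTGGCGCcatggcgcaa
LIG1: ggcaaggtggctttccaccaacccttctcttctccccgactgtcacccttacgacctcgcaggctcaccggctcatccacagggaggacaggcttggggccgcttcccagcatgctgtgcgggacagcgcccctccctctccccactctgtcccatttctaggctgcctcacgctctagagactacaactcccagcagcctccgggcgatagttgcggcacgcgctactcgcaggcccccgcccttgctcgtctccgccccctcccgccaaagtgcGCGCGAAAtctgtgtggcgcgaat
POLE2: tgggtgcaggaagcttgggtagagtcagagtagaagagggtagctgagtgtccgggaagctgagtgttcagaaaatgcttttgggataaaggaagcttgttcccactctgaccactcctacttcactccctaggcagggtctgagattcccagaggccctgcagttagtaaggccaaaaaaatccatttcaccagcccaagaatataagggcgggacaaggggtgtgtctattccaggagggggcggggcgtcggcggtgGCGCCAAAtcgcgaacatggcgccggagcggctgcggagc
MCM6: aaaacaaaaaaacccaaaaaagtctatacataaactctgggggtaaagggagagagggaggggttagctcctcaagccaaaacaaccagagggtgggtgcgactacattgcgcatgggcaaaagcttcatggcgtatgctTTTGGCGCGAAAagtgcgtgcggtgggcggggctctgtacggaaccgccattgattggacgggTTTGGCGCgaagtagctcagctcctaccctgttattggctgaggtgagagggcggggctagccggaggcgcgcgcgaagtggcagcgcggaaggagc
These lie at chr8:122567765-122568064 on the plus strand for CDT1, chr7:13278576-13278875 on the plus strand for LIG1, chr12:69228141-69228440 on the minus strand for POLE2 and chr1:128359656-128359955 on the minus strand for MCM6. The words start 32, 26 and 10 bases after the start in CDT1, LIG1 and POLE2. In MCM6 they begin 110, 106 and 47 bases before the start, and the 2 farthest from it overlap.

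An E2F word occurred in 14 of the 45 promoters (31.1%), against 744 of all 32851 promoters (2.26%). Within the 47 genes, 3 of 10 promoters of genes lowered by DZNep held a word (30%), and 11 of 35 promoters of the others (31.4%). The 10 promoters belong to 8 genes, and only exact words were searched. Whether E2F factors took part in the falls was not tested. MCM6 stood at 66.7, 60.6 and 54.5 RPKM with DMSO and at 57.0, 62.5 and 64.9 RPKM with DZNep, with overlapping groups (log2 change 0.02, limma, adjusted p = 0.851). The CCAAT word, read on both strands, occurred in 2 of 10 promoters of the lowered genes (20.0%) and in 24 of 35 promoters of the others (68.6%), against 37.4% of all promoters. TTTGAA, the core of the cell cycle homology region of mitotic genes, occurred in 13.3% of the 45 promoters and 17.9% of all. A word is a description of the letters, not a bound site, and several promoters belong to the same gene.

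The genetic experiment compared organoids given Tamoxifen with organoids given EtOH. None of the 47 genes passed the test (limma, adjusted p under 0.05 over 11123 genes, n = 2 per group, lowest adjusted p = 0.0625). An unadjusted p under 0.05 was found in 8 of the 47 (17%), against 25.5% of all genes tested. Few genes passed in the whole table, where 0.692% of all genes tested rose and 1.38% fell. The estimates lay mostly above 0: 43 of 47 were positive, against 6662 of all 11123 genes tested. Their median over the 47 was 0.15 on the log2 scale, beside 0.04 over all genes tested. That median was 0.07 without the second Tamoxifen library, 0.24 without the first, and 0.09 without the first EtOH library. In 19 of the 47 genes both Tamoxifen libraries lay above both EtOH libraries (40.4%, against 36.6% of all genes tested), and in 1, CCNE2, both lay below (2.13%, against 23.2%). With 2 libraries a group, the smallest exact permutation p for a single gene is 0.333. Each EtOH and Tamoxifen library carried its own shared shift, given above, and the part of that shift in these estimates was not tested.

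The highest estimates in the genetic experiment belonged to RPA2 and UNG. RPA2, the middle subunit of RPA, stood at 7.27 and 8.95 RPKM with EtOH and at 11.0 and 12.2 RPKM in the libraries labelled Tamoxifen (log2 change 0.47, SE 0.106, limma, adjusted p = 0.0867). UNG, the glycosylase that removes uracil from DNA, stood at 9.18 and 9.59 RPKM with EtOH and at 11.5 and 13.4 RPKM with Tamoxifen (log2 change 0.37, SE 0.0817, limma, adjusted p = 0.0835). In both genes the groups did not overlap. MCM3, a ring subunit, stood at 47.5 and 51.2 RPKM with EtOH and at 55.6 and 66.5 RPKM with Tamoxifen (log2 change 0.30, limma, adjusted p = 0.151), and TK1 stood at 45.2 and 54.0 against 56.0 and 64.4 RPKM (0.28, adjusted p = 0.201). The RPA2 to RPA1 ratio, at 0.170 and 0.183 with EtOH, was 0.237 and 0.235 with Tamoxifen, whereas it overlapped between DMSO and DZNep (exact two-sided permutation p = 0.333 and 0.8). RPA2 and UNG passed when all 10 libraries shared the estimate of spread (limma, adjusted p = 0.0246 and 0.0263). In that fit 479 of 10994 genes tested rose and 574 fell. With the genetic libraries alone, 77 of 11123 rose and 153 fell.

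CCNE2 was the exception to the upward estimates. It stood at 5.29 and 4.81 RPKM with EtOH and at 3.29 and 3.67 RPKM in the libraries labelled Tamoxifen. The groups did not overlap, and the log2 change of -0.43 (SE 0.0787) gave the lowest p of the 47 genes (limma, adjusted p = 0.0625). It passed when all 10 libraries shared the estimate of spread (limma, adjusted p = 0.0409), a fit in which 5.22% of all genes tested fell. CCNE1 stood at 4.54 and 5.14 RPKM with EtOH and at 5.18 and 6.72 RPKM with Tamoxifen, so the CCNE2 to CCNE1 ratio was 1.17 and 0.936 with EtOH and 0.636 and 0.546 with Tamoxifen (exact two-sided permutation p = 0.333). The other 3 estimates below 0 were small: E2F8 at -0.05, RPA3 at -0.04 and PRIM2 at -0.01.

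The difference between the experiments was tested directly, as the DZNep change minus the Tamoxifen change in a fit of all 10 libraries. It passed in 12 of the 47 genes, all with the lower change after DZNep (25.5%, against 9.20% of 10994 genes tested, limma, adjusted p under 0.05), and in none with the higher (against 10.7%). The difference was below 0 in 46 of 47 genes, against 5686 of all 10994 tested. Its median was -0.25 on the log2 scale, beside -0.01 over all genes tested. The 12 were TK1, RFC4, CDT1, RPA2, E2F1, UNG, RRM2, LIG1, POLE2, POLE, E2F8 and POLA2, and they include 8 of the 9 genes that fell with DZNep. They differed in which experiment carried the larger estimate. TK1 had the widest difference, -0.66 (SE 0.149, adjusted p = 0.0137), from a change of -0.38 with DZNep and 0.28 with Tamoxifen. CDT1 had -0.58 (SE 0.0962, adjusted p = 0.00337), with -0.41 and 0.17. RPA2 and UNG differed by -0.54 (adjusted p = 0.0236) and -0.49 (adjusted p = 0.0146), with -0.07 and 0.47 for RPA2 and -0.12 and 0.37 for UNG. POLA2, an accessory subunit of polymerase alpha, stood at 17.1, 15.9 and 14.9 RPKM with DMSO, 12.8, 13.7 and 15.1 with DZNep, 16.0 and 15.9 with EtOH, and 17.5 and 19.1 with Tamoxifen (difference -0.38, adjusted p = 0.0346).

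CCNE2, the remaining gene that fell with DZNep, had nearly the same estimate in both experiments, -0.47 and -0.43, and the difference of -0.03 (SE 0.147) did not pass (limma, adjusted p = 0.893). The count of 12 rested on single libraries, and the share of all genes tested moved with it. It was 3 without the first EtOH library (4.74% of all genes tested) or the second Tamoxifen library (3.48%), so close to the background. It was 6 without the second DMSO library (5.48%), 7 without the second DZNep library (6.57%) and 17 without the third DMSO library (7.99%). CDT1, LIG1 and E2F1 passed in each of these. The median difference was -0.15 without the second Tamoxifen library.

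**Figure D5:**
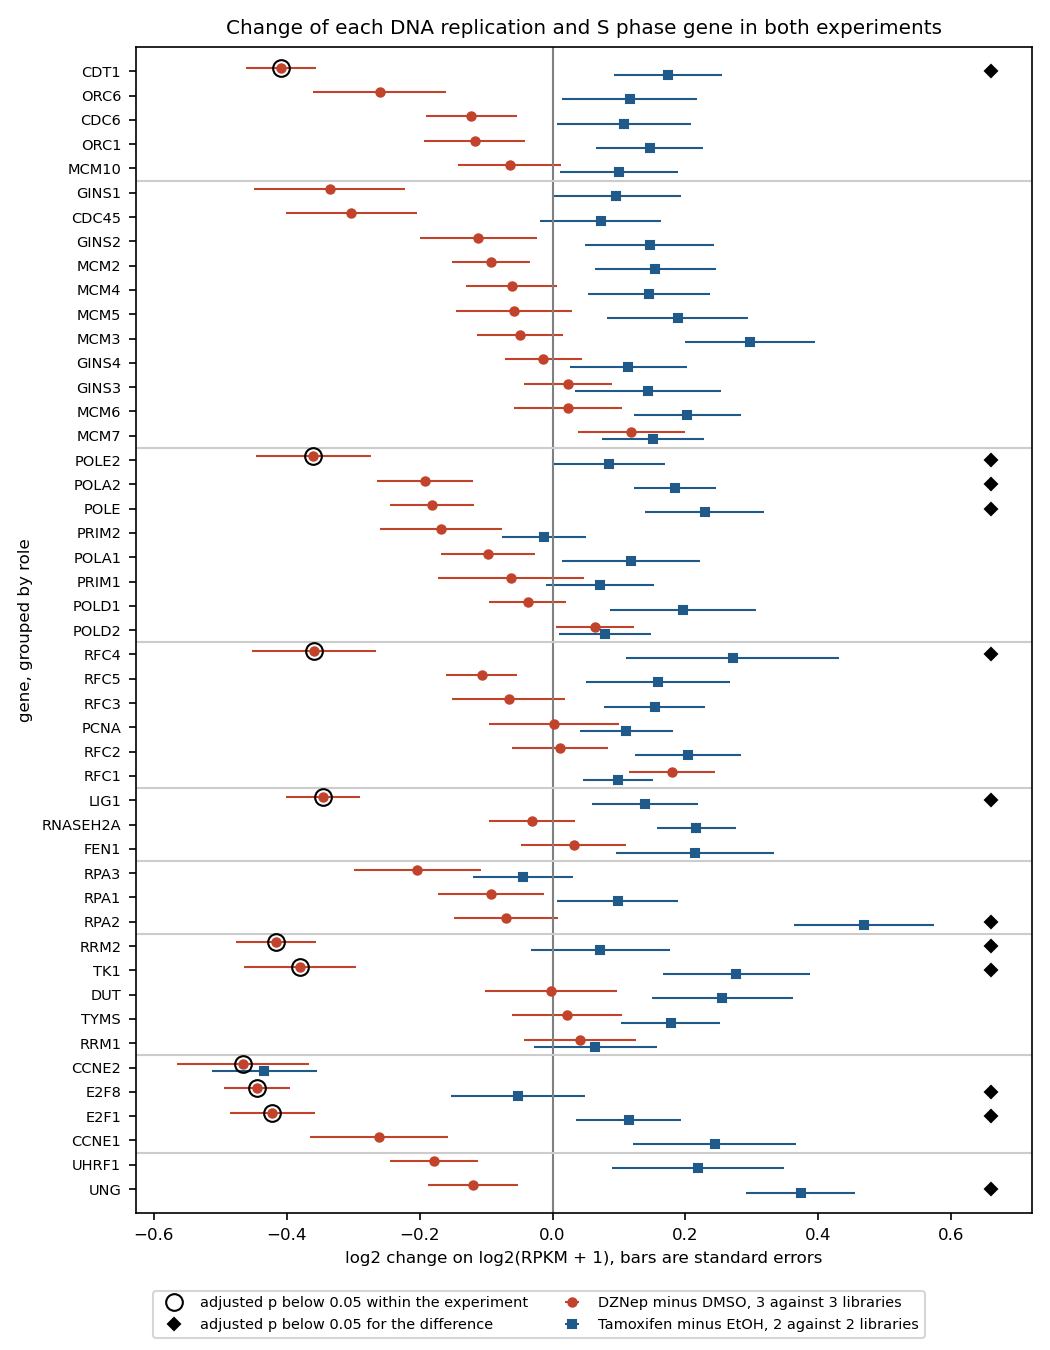
Change of each gene in both experiments. The x axis is the log2(RPKM + 1) change with its standard error as bars, the y axis lists the 47 genes by role, colours mark DZNep against DMSO and Tamoxifen against EtOH, open circles mark the 9 falls with DZNep and diamonds the 12 genes whose changes differed. Estimates with DZNep run from -0.47 to 0.18 and lie below those with Tamoxifen in 46 of 47 genes.

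Other genes of the pathway, from a list of 60 of which 58 were tested, moved in both directions with DZNep. Of the 58, 14 fell (24.1%, against 11.1% of all genes tested) and 5 rose (8.62%, against 16.6%). Their median log2 change was -0.12. The falls included ASF1B, a histone chaperone of the fork, from 22.2 ± 2.67 to 15.5 ± 0.814 RPKM (SD, n = 3 each, log2 change -0.49, limma, adjusted p = 0.00591). CCNA2, the S phase cyclin, fell from 61.3 ± 5.42 to 47.3 ± 3.07 RPKM (-0.37, adjusted p = 0.0115), and CCND1, the G1 cyclin, from 292 ± 11.5 to 248 ± 3.05 RPKM (-0.23, adjusted p = 0.0131). CHTF18, of the alternative clamp loader, fell from 5.58 ± 0.207 to 4.35 ± 0.398 RPKM (-0.30, adjusted p = 0.0145). The genes that rose include members of the same roles. SAMHD1, which breaks down deoxynucleotides, rose from 24.1 ± 0.407 to 29.0 ± 0.347 RPKM (0.26, adjusted p = 0.00473), and RBL2, the p130 member of the retinoblastoma family that holds E2F genes silent, from 7.83 ± 0.243 to 9.43 ± 0.132 RPKM (0.24, adjusted p = 0.00828). CHTF8, which belongs to the same alternative clamp loader as CHTF18, rose by 0.27 on the log2 scale, and ORC3, an origin recognition subunit, by 0.18. With Tamoxifen none of the 58 passed (limma), and 17 had an unadjusted p under 0.05 (29.3%, against 25.5% of all genes tested). The difference between the experiments passed in 10 of the 58 with the lower change after DZNep (17.2%, against 9.20% of all genes tested). It passed in 4 with the higher (6.9%, against 10.7%).

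Genes of mitosis fell in a larger share than the replication genes, although the difference in shares was not tested. Of 34 mitotic genes, 14 fell with DZNep (41.2%, against 11.1% of all genes tested) and 1 rose (2.94%, against 16.6%). Their median log2 change was -0.19. By library the median difference from the table mean was 0.22, 0.11 and -0.02 with DMSO and -0.20, -0.11 and -0.01 with DZNep. Counts for this list and for the other pathway genes are not given without single libraries. MYBL2 and FOXM1, transcription factors of the S to M phase programme, fell from 15.1 ± 0.928 to 10.7 ± 0.170 RPKM and from 15.1 ± 0.594 to 10.7 ± 0.614 RPKM (SD, n = 3 each, log2 changes -0.47 and -0.46, limma, adjusted p = 0.00101 and 0.00126). CENPE, a kinetochore motor, and TACC3, a spindle protein, fell by 0.39 and 0.32. MKI67, the proliferation marker Ki-67, rose from 52.7 ± 0.960 to 59.6 ± 2.62 RPKM (0.18, adjusted p = 0.0334). With Tamoxifen none of the 34 passed (limma), and the median was -0.00. An unadjusted p under 0.05 was found in 1 of them (2.94%, against 25.5% of all genes tested). The epithelial marker sum stood at 3598 to 3749 RPKM with DMSO and at 4977 to 5106 RPKM with DZNep. It stood at 3791 to 3817 with EtOH and 3195 to 3275 with Tamoxifen. KRT5 (mean 2061 RPKM with DMSO, 2752 with DZNep) and KRT14 (786 and 1418) led the sum. KRT8 also rose with DZNep, whereas EPCAM, CDH1 and KRT18 did not pass. With Tamoxifen KRT14 fell, from a mean of 842 RPKM with EtOH to 601 (log2 change -0.49, limma, adjusted p = 0.0424). The estimate of KRT5 was below 0 and those of EPCAM, CDH1, KRT8 and KRT18 above 0, and none of these passed. The part of this sum in the changes above was not tested.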

How the data were processed

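RNA-seq was run on 10 libraries, with TRIzol extraction and a stranded TruSeq mRNA kit from 500 ng of RNA, per the labels' protocols. The tools named in the submitters' processing notes are bcl2fastq 2.18, STAR and Cufflinks, with build mm9. The sources used here do not give how strand, overlapping genes and reads shared with pseudogenes were counted. The authors deposited log2 RPKM values in 1 table per experiment, with a floor of 0, read as log2(RPKM + 1). RPKM was recovered from them, and no read depth is known.

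The table of the genetic experiment had 27 symbols turned into dates, left out. Genes were tested if their mean per table was 1 RPKM or more, on the log2(RPKM + 1) scale, which understates changes of low genes, with limma 3.58.1 (R 4.3.3, moderated test, mean trend, two-sided) and Benjamini-Hochberg adjustment over all genes tested, threshold 0.05. Each table was fitted alone, and the difference between experiments in 1 fit of 4 group means. The method was tested on simulated data in which the noise was independent between genes. That simulation held no shift shared by the genes of a library, so it does not cover such a shift. No 2 libraries were identical (at most 0.332% of values equal).

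Members, lists and tests were chosen with earlier results of these data known. Values by library are given for genes past the threshold in either experiment or the difference, the 5 largest rises and falls in each experiment and the highest gene of each role. Of the other lists, up to 4 genes per direction by smallest p and MKI67 are named. Promoters are those of genes lowered by DZNep that hold an E2F word, up to 4. Other genes were chosen after their values were seen. Alternatives changed the pseudocount (0.1), the filter (none, or 5 RPKM), the scaling (quantile, trimmed mean), the variance model, the replicate block and the libraries used. The check of the prostate luminal markers is not reported here.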

Additional observations from a re-analysis of the deposited data

Results flagged for a closer look

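The change with DZNep and the change with Tamoxifen differed in 12 of the 47 genes, each with the lower change after DZNep. The test was of the difference itself (limma, DZNep change minus Tamoxifen change, log2 scale, adjusted p under 0.05). These are 25.5% of the 47, against 9.20% of all genes tested. The widest were TK1 with -0.66 and RFC4 with -0.63, a thymidine kinase and a clamp loader subunit. CDT1, which licenses origins, had -0.58, RPA2 had -0.54 and E2F1 had -0.54. UNG had -0.49, RRM2 -0.49 and LIG1 -0.48. The 3 polymerase subunits POLE2, POLE and POLA2 had -0.45, -0.41 and -0.38, and E2F8 had -0.39. In 11 of the 12, all but E2F8, the estimate was below 0 with DZNep and above 0 with Tamoxifen. The Tamoxifen change itself passed in none of the 12 (limma). Its unadjusted p was under 0.05 in 8 of the 47 genes (17%, against 25.5% of all genes tested). Without 1 library each, CDT1, LIG1 and E2F1 passed in 10 of 10 fits, and RRM2, TK1 and UNG in 8 of 10, lost without the first EtOH or the second Tamoxifen library. POLE and RPA2 passed in 6 of 10, E2F8 in 5, POLA2 and POLE2 in 3, and RFC4 in 2.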

How the results depend on the processing

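The count of genes lowered by DZNep, 9, was 8 to 13 over the other settings, and 6 to 15 when single libraries were left out, with 15 without the third DMSO library. The share of all genes tested moved too: it was 14.7% after quantile normalization (13 of the 47) and 7% with no filter (8 of the 47). With the filter of 5 RPKM, 8 fell of 42 tested, against 10.7% of all genes tested, and CCNE2 was not tested. E2F8, CDT1, RRM2, E2F1, LIG1 and TK1 passed under each setting and without each library. The count for Tamoxifen, 0, was 3 with robust variances (RPA2 and UNG higher, CCNE2 lower), where 261 of all 11123 genes tested rose and 385 fell. It was also 3 in the joint fit of all 10 libraries, where 479 of 10994 rose and 574 fell. The count for the difference, 12, was 7 with no filter and 3 to 17 without single libraries. The replicate block gave 8 genes for DZNep, 5 for Tamoxifen (RPA2, UNG, TK1 and MCM3 higher, CCNE2 lower) and 10 for the difference. It lost RFC4 with DZNep (adjusted p = 0.0565), and POLA2 (0.0954) and POLE2 (0.0637) for the difference. Over all genes the block moved the Tamoxifen calls from 77 higher and 153 lower to 429 and 449. With the block, 5.33% of all genes tested fell with DZNep, and the difference was lower in 4.93%. With no filter the difference was lower in 5.83% of all genes tested. Over all genes tested, deviations of same-numbered libraries correlated at 0.06, 0.06 and -0.07 in the chemical experiment and 0.04 in the genetic one. For the 47 genes, the second library was the higher in 40 with EtOH and in 47 with Tamoxifen. Whether the numbers pair the libraries cannot be told from these values. PCNA with DZNep turned to -0.037 after quantile normalization and -0.018 after trimmed mean scaling. Leaving out single libraries also turned the sign of estimates that had not passed. With DZNep these ran from -0.030 to 0.11 for RRM1, -0.034 to 0.10 for FEN1, -0.11 to 0.0061 for MCM3 and -0.076 to 0.079 for PCNA. With Tamoxifen they ran from -0.021 to 0.19 for POLE2, -0.063 to 0.21 for RRM2, -0.19 to 0.088 for E2F8, -0.034 to 0.16 for RRM1, -0.14 to 0.047 for RPA3, -0.076 to 0.050 for PRIM2 and -0.026 to 0.26 for ORC6. The difference for CCNE2 ran from -0.11 to 0.058. The cause was not tested. The genetic experiment has 2 residual degrees of freedom, and a library left alone in its group was assumed to vary like the others. Depth is unknown, so counting error at low levels, as in CCNE2 or ORC1, cannot be separated from the replicate spread.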
